A study of Homo sapiens with 6 samples.

Results

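MYC and the long non-coding RNAs (lncRNAs) transcribed around it on chromosome band 8q24 were described in sorted breast cancer cells. The set was given as 7 genes, MYC, PVT1, CASC19, CCAT1, CASC8, CASC11 and PCAT1. They were chosen with their levels in these libraries known, so every difference between groups for these genes is a description without a test. Deposited transcripts were summed per gene by the GENCODE annotation, and 6 of the 7 symbols were found among the 61014 genes with a transcript on file. All 6 passed the filter on low counts, as did 20442 genes in all. CCAT1 had no gene of its own in that annotation, and transcripts lying over it were carried under CASC19.

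Paclitaxel-resistant MDA-MB-231 cells, a human triple-negative breast cancer line, had been sorted on aldehyde dehydrogenase (ALDH) activity. The ALDH+ fraction is labelled BCSC (breast cancer stem cell, n = 3 libraries) and the ALDH− fraction non-BCSC (n = 3 libraries). Both fractions came from the resistant line per the study, although the titles of the non-BCSC libraries do not name the resistance. LncRNA sequencing was run on total RNA, and nothing in the labels says whether replicates were separate cultures, so p-values measure only the spread between these libraries.

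MYC is a transcription factor that dimerises with MAX, binds E-box DNA and drives genes of ribosome production, nucleotide and polyamine synthesis and nutrient uptake. Its gene lies beside a long stretch with few coding genes, which holds enhancers that loop to the MYC promoter and gives rise to many lncRNAs. Gain of 8q24 is frequent in breast cancer, and PVT1 is commonly gained together with MYC.

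Total counts were higher in every BCSC library (15925943 to 21215352) than in any non-BCSC library (9898588 to 12263667). A count of 0 allows up to 3 counts, or 0.141 to 0.303 CPM (counts relative to library size) depending on the library, and such limits cover counting error only. Olfactory receptor genes, which breast cells are not known to use, gave 0.865, 0.931 and 2.69 counts per kb of exon in BCSC against 7.03, 8.54 and 12.9 in non-BCSC (391 genes). That background was thus higher in every non-BCSC library although these libraries were shallower. Fold changes also rose with GC content across the 20442 genes (Spearman's rho 0.54, genes of the same 6 libraries and not independent). The line's markers VIM and CD44 were abundant (at least 1251 CPM in every library), whereas KRT18 was at 0.98 to 2.56 CPM in BCSC against 10.2 to 12.5 in non-BCSC. The summed level of 6 markers expressed in the line was 6029 to 7173 CPM in BCSC against 3844 to 5301 in non-BCSC. That of 6 markers low in the line was 81.0 to 93.2 CPM in BCSC against 103 to 141 in non-BCSC. The summed level of 5 immune markers was 3.25 to 4.11 CPM in BCSC against 14.9 to 26.2 in non-BCSC, there mostly PTPRC. CD3E was at 0 in 2 BCSC libraries and CD68 at 0 in 2 non-BCSC libraries. These markers did not all move one way. Only 2 of the 5 passed the filter. At an adjusted p under 0.05 with a log2 fold change beyond 1 (edgeR), 1 was higher and 1 lower in BCSC, beside 8.85% and 11.3% of all genes. The summed level of 5 endothelial and stromal markers was 24.6 to 44.6 CPM in BCSC against 68.6 to 103 in non-BCSC, mostly CDH5, and VWF and LUM were at 0 in 2 BCSC libraries each. The part of these differences in the results that follow was not tested beyond the values given beside them. In such bulk libraries fewer cells using a gene and less RNA per cell cannot be told apart.

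MYC itself (GRCh37, chromosome 8, 128747680 to 128755197, plus strand) was near the same level in both fractions. Its counts were 2123, 1598 and 1538 in BCSC against 1160, 1115 and 799 in non-BCSC. Scaled to TMM library sizes these were 105, 104 and 93.0 CPM in BCSC against 95.7, 98.5 and 76.6 CPM in non-BCSC. The third library of each group was the lowest of its group, and the 2 groups overlapped. Group means were 101 ± 6.58 and 90.3 ± 11.9 CPM (SD, n = 3 each), and the fitted log2 fold change, BCSC over non-BCSC, was 0.16 ± 0.13 (SE). MYC protein was not measured in these libraries.

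PVT1 was the one listed gene with a higher level in every BCSC library. It is a lncRNA gene that begins 51.6 kb downstream of MYC on the same strand (128806772 to 129199347), hosts several microRNAs, and is known both for a promoter that competes with MYC for enhancers and for an RNA reported to stabilise MYC protein. Its counts were 2300, 1544 and 1583 in BCSC against 653, 510 and 626 in non-BCSC. The levels were 113, 101 and 95.7 CPM in BCSC against 53.9, 45.1 and 60.03 CPM in non-BCSC, without overlap. The ratio of the group means was 1.95 and the log2 fold change 0.96 ± 0.15 (SE). The gain was present in transcripts that start near the gene's start and in those that start further in, by estimated transcript shares. The 93 transcripts that start within 3 kb of the gene's start held 1056, 637 and 734 counts in BCSC against 327, 287 and 329 in non-BCSC. The 97 that start further in held 1244, 907 and 849 in BCSC against 326, 223 and 297 in non-BCSC. In CPM the ratio of BCSC to non-BCSC was 1.64 for the former set and 2.29 for the latter.

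CASC19 moved the other way and was the listed gene with the largest difference among those above 100 counts in every library. It is a lncRNA gene 508 kb upstream of MYC on the minus strand (128084939 to 128239786), in the part of the gene desert where the MYC enhancers active in colorectal and other carcinomas lie. Its counts were 909, 680 and 695 in BCSC against 2273, 1273 and 1591 in non-BCSC, higher in the shallower libraries. The levels were 44.8, 44.4 and 42.0 CPM in BCSC, a narrow range, and 188, 112 and 153 CPM in non-BCSC. The groups did not overlap. The mean was 3.45 times higher in non-BCSC, and the log2 fold change was −1.79 ± 0.18 (SE).

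CCAT1, a lncRNA first described for its overexpression in colon cancer, could be followed only through the CASC19 transcripts. Of the 88 CASC19 transcripts, 11 lay over the RefSeq CCAT1 gene only, 34 over RefSeq CASC19 only, 32 over both and 11 over neither. The transcripts over CCAT1 only held 592, 423 and 340 counts in BCSC against 1227, 826 and 918 in non-BCSC. Nearly all of these were 1 transcript, CASC19-201, of 2 exons and 5735 bases (128216657 to 128231483), with 569, 408 and 340 counts in BCSC against 1227, 826 and 918 in non-BCSC. It was 28.03, 26.6 and 20.6 CPM in BCSC against 101, 73.0 and 88.0 CPM in non-BCSC. This single transcript made up 57.2% ± 7.26 of the CASC19 sum in BCSC against 58.9% ± 5.54 in non-BCSC (SD, n = 3), shares that overlapped. The transcripts over CASC19 only held 225, 192 and 174 counts in BCSC against 682, 300 and 440 in non-BCSC. The mean CPM was thus 3.39 times higher in non-BCSC for the CCAT1 interval and 3.66 times higher for the CASC19 interval. Reads from the overlapping transcripts may have been split between the 2 names by the counting.

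PCAT1 (127568568 to 128431295, plus strand), a lncRNA known from prostate cancer, had counts of 675, 442 and 504 in BCSC against 409, 300 and 387 in non-BCSC. At 33.3, 28.8 and 30.5 CPM in BCSC against 33.8, 26.5 and 37.1 CPM in non-BCSC the groups overlapped, and the log2 fold change was −0.07 ± 0.19 (SE). The sum held 2 parts, and only the smaller separated the groups in CPM. PCAT1 shares 848 exon bases on the same strand with POU5F1B, a retrogene of the pluripotency factor OCT4, and 9 PCAT1 transcripts that share those bases held 608, 366 and 434 counts in BCSC against 300, 225 and 284 in non-BCSC. In CPM this part was 29.9, 23.9 and 26.2 in BCSC against 24.8, 19.9 and 27.2 in non-BCSC, which overlapped. The other 25 PCAT1 transcripts held 67, 76 and 70 counts in BCSC against 109, 75 and 103 in non-BCSC, and no olfactory background was estimated for them alone. Without the shared transcripts the log2 fold change was −1.03, and the levels were 3.30, 4.96 and 4.23 CPM in BCSC against 8.995, 6.63 and 9.88 CPM in non-BCSC. The shared transcripts made up 86.3% ± 3.64 of the sum in BCSC against 73.9% ± 0.943 in non-BCSC (SD, n = 3), without overlap between the groups.

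The remaining 2 lncRNAs were scarce. CASC8 (128302053 to 128494384, minus strand), a lncRNA gene that runs across the positions of POU5F1B and CCAT2, had 44, 23 and 42 counts in BCSC against 26, 17 and 34 in non-BCSC. Its levels of 2.07 ± 0.527 CPM and 2.30 ± 0.890 CPM (mean ± SD, n = 3) overlapped, and the log2 fold change was −0.15 ± 0.72 (SE). CASC11 (128698588 to 128751233, minus strand) starts inside the MYC gene, runs away from it past the MYC promoter, and shares 194 exon bases with MYC on the opposite strand. It had 11, 11 and 13 counts in BCSC against 45, 25 and 36 in non-BCSC. Its levels, 0.54, 0.72 and 0.79 CPM in BCSC against 3.71, 2.21 and 3.45 CPM in non-BCSC, did not overlap, and the log2 fold change was −2.18 ± 0.78 (SE). Libraries were made to keep strand, but whether counting used it is not stated, so reads of MYC and CASC11 in the shared bases may not have been told apart.

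Of the 6 genes, 1 (CASC19) met an adjusted p under 0.05 with a log2 fold change beyond 1 on the lower side and 0 on the higher side, in a table where 11.3% and 8.85% of all genes tested did so and 20.1% in either direction (edgeR, quasi-likelihood). At any fold there were 1 higher (PVT1) and 1 lower (CASC19), against 15.3% and 14.6%, or 29.9% in either direction. The groups did not overlap for 3 of the 6 (PVT1, CASC19 and CASC11), as for 52.1% of all genes. Because the genes were picked on this contrast, nothing is read from these counts.

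**Figure D1:**
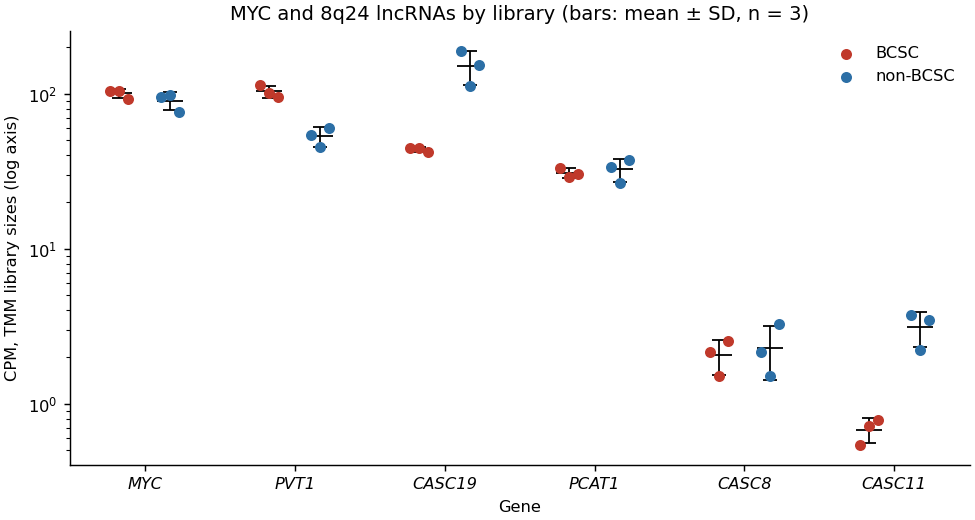
CPM (log axis) of the 6 annotated genes in each of 3 BCSC (red) and 3 non-BCSC (blue) libraries, with the mean and SD of each group as black bars. PVT1 lies higher in BCSC (95.7 to 113 CPM against 45.1 to 60.03), CASC19 and CASC11 lie lower in BCSC, and MYC, PCAT1 and CASC8 overlap.

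The ratio of each lncRNA to MYC within a library does not depend on library size. There were 1.08, 0.966 and 1.03 PVT1 counts per MYC count in BCSC against 0.563, 0.457 and 0.783 in non-BCSC. CASC19 gave 0.428, 0.426 and 0.452 counts per MYC count in BCSC against 1.96, 1.14 and 1.99 in non-BCSC. Hence MYC held more counts than CASC19 in every BCSC library and fewer in every non-BCSC library. The counts of PVT1 and CASC19 changed order likewise, with 2.27 to 2.53 PVT1 counts per CASC19 count in BCSC against 0.287 to 0.401 in non-BCSC. These counts were not divided by transcript length, and per kb MYC, CASC19 and PVT1 could not be ranked in non-BCSC. PCAT1 gave 0.277 to 0.328 counts per MYC count in BCSC against 0.269 to 0.484 in non-BCSC, which overlapped.

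**Figure D2:**
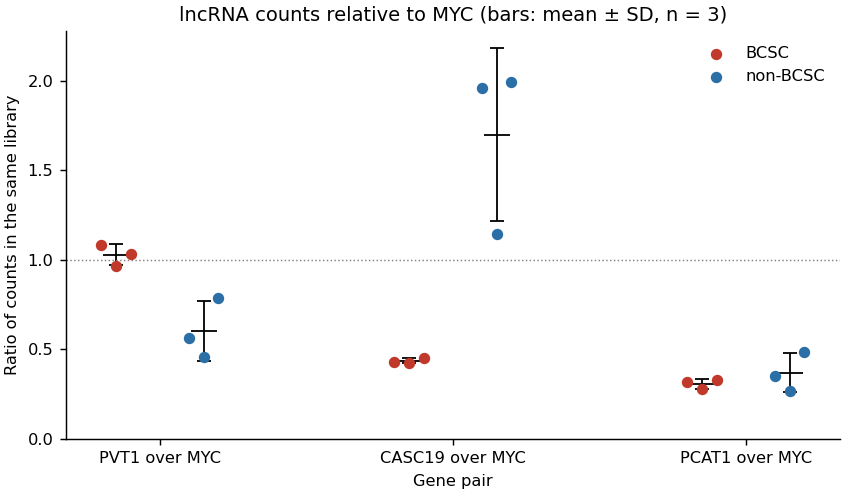
Counts of PVT1, CASC19 and PCAT1 divided by MYC counts of the same library (points), with group mean and SD (bars, n = 3) and a dotted line at 1. The PVT1 and CASC19 ratios separate BCSC (red) from non-BCSC (blue) in opposite directions, while the PCAT1 ratios overlap.

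To compare levels between genes, CPM was divided by the mean length of each gene's transcripts weighted by their counts. In BCSC the order was PVT1 (66.8 ± 5.86 CPM per kb), MYC (42.8 ± 2.80), PCAT1 (25.7 ± 1.86), CASC19 (11.0 ± 0.372), CASC8 (2.13 ± 0.542) and CASC11 (0.301 ± 0.0556), all mean ± SD of 3 libraries. Neighbours in that order lay further apart than their SDs. In non-BCSC MYC (38.4 ± 5.07 CPM per kb), CASC19 (38.0 ± 9.46) and PVT1 (34.3 ± 4.87) could not be ranked within their spread. PCAT1 (27.1 ± 4.52) lay within reach of PVT1, and CASC8 (2.37 ± 0.916) and CASC11 (1.38 ± 0.354) were again last, also within their spread of each other. The lengths rest on estimated transcript shares, which were not stable.

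MYC shows that instability. The annotation lists 15 MYC transcripts, of which 12 had counts. MYC-213 held 348, 89 and 649 counts in BCSC against 231, 310 and 646 in non-BCSC. MYC-202 held 131, 293 and 252 in BCSC against 258, 546 and 0 in non-BCSC. MYC-201, whose start is the most upstream of them, held 620, 466 and 94 in BCSC against 0 in each non-BCSC library. Replicates of one group thus differed widely in how reads were divided among overlapping transcripts, while their sum was steady. MYC-201 did separate the groups, as did MYC-215, which held 244, 148 and 141 counts in BCSC against 21, 86 and 27 in non-BCSC. So did the scarce MYC-207, with 12, 8 and 2 counts in BCSC against 1 in each non-BCSC library. Over the 6 genes, 336 transcripts were on file, 161 had counts and 59 passed the filter. None of the 59 met the call rule in edgeR, where 0.784% of all 45898 transcripts tested did.

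**Figure D3:**
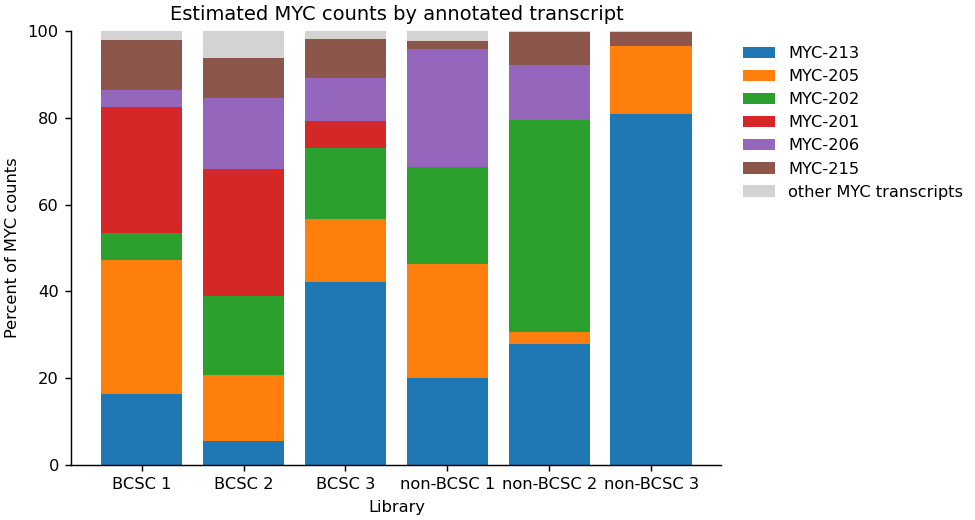
Share of MYC counts, in percent, given to each annotated MYC transcript in the 6 libraries (stacked bars, 6 most abundant transcripts in colour, others grey). MYC-213 ranges from 5.57% to 42.2% among BCSC and from 19.9% to 80.9% among non-BCSC libraries, and MYC-201 is seen in BCSC libraries alone.

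The size of the members' differences depended on how base composition and background were treated. With counts corrected for GC content and transcript length in each library, CASC19 moved to −0.99, PVT1 to 1.27, MYC to −0.32 and PCAT1 to 0.96 on the log2 scale. The median over all genes moved from −0.05 to 0.14 in that fit. With the olfactory background per kb of exon removed, values were −2.07 for CASC19, 1.28 for PVT1, −0.17 for MYC, 0.41 for PCAT1 and 1.89 for CASC8, with an all-gene median of 0.18. PVT1 stayed positive and CASC19 negative in every fit run, whereas the signs of MYC, PCAT1 and CASC8 were not fixed. The GC content of the transcripts was 53.5% for MYC, 48.2% for PVT1 and 41.4% for CASC19, against a median of 44.8% over all genes.

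The background mattered most for the scarce genes. The estimate for CASC11 was 36.2, 43.98 and 66.4 counts in the non-BCSC libraries, where 45, 25 and 36 were observed. For CASC8 it was 16.5, 20.1 and 30.3 counts against 26, 17 and 34 observed. The non-BCSC levels of both genes were therefore at the olfactory level per kb. For MYC it was 43.0, 52.2 and 78.8 counts of 1160, 1115 and 799, and for CASC19 156, 190 and 287 of 2273, 1273 and 1591. For PVT1, whose exons cover 25.4 kb, it was 179, 217 and 328 counts of 653, 510 and 626. For PCAT1 as a whole it was 130, 158 and 238 counts of 409, 300 and 387. No estimate was made for its 25 transcripts that do not share bases with POU5F1B. These held 109, 75 and 103 counts in non-BCSC, fewer than the estimate for the whole gene, which covers more exon. How far that part exceeded the olfactory level was not tested.

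**Figure D4:**
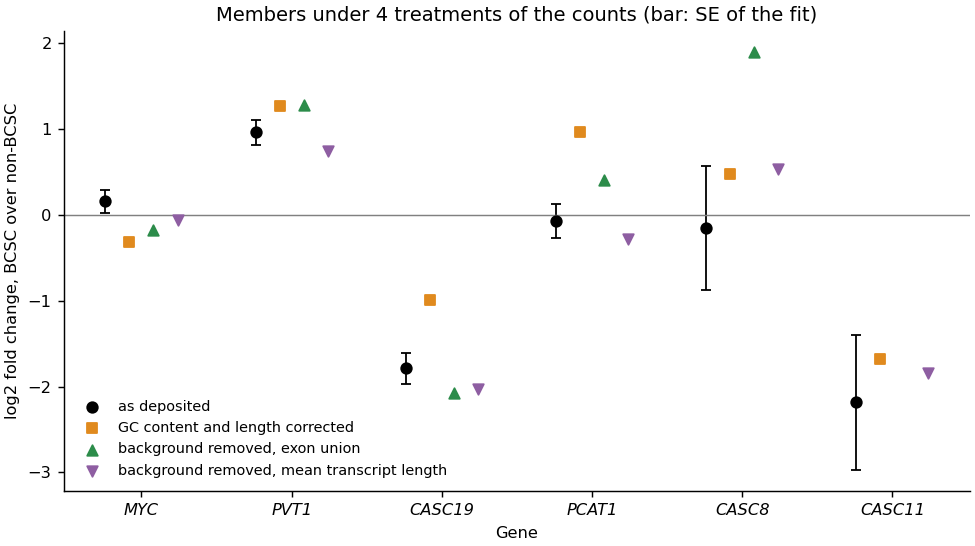
Fitted log2 fold change, BCSC over non-BCSC, of the 6 genes from the deposited counts (black, with SE), after a correction for GC content and length (orange) and after removal of an olfactory background by exon union (green) or mean transcript length (purple). PVT1 stays above 0 and CASC19 and CASC11 below 0 at each point drawn, while MYC, PCAT1 and CASC8 cross 0 (CASC11 had no value with the exon union).

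The other genes around MYC were mostly scarce. Within 2 Mb of MYC 43 further genes are annotated, and 12 passed the filter. Of these, 1 was higher and 2 lower by the call rule (edgeR, adjusted over all genes), beside 8.85% and 11.3% of all genes, and at any fold 2 were higher and 2 lower, beside 15.3% and 14.6%. Of the 12 log2 fold changes 4 were above 0 and 8 below. Their median was −2.21, beside −0.05 over all genes, and −1.74 with the GC correction, beside 0.14. With the background removed by exon union the median was 0.08, beside 0.18, over fewer genes. LINC00861 (−4.01 as deposited), ENSG00000286266 (−2.85) and ENSG00000285108 (−2.51) had no value in that fit, so this median cannot be set against the other 2. On average 7 of the 12 had fewer than 50 counts. POU5F1B rose from 3.05, 3.27 and 3.26 CPM in non-BCSC to 9.90, 7.44 and 7.26 CPM in BCSC, without overlap (log2 fold change 1.36 ± 0.41, adjusted p = 0.0333). That call was lost when any 1 of the 6 libraries was left out, and reads of POU5F1B may be shared with PCAT1. Its non-BCSC counts of 37, 37 and 34 lay beside an olfactory background of 34.9, 42.4 and 64.0. With that background removed by exon union the log2 fold change was 6.52 and still passed. By mean transcript length it was 3.24 and did not. LRATD2, the coding gene at the far upstream edge of the desert, was at 72.1, 71.0 and 73.8 CPM in BCSC against 52.7, 56.7 and 47.5 CPM in non-BCSC (0.47 ± 0.13, adjusted p = 0.0276). The LRATD2 call was lost with the GC correction (0.23), and also without BCSC replicate 1, 2 or 3 or non-BCSC replicate 3. It was lost as well with RLE size factors and with at least 10 counts required in every library. Removal of the background by exon union (0.19) or by mean transcript length (0.33) lost it too.

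CCDC26, a lncRNA gene downstream of PVT1 known from leukaemia, fell from 32.0, 40.5 and 79.3 CPM in non-BCSC to 2.22, 3.59 and 11.3 CPM in BCSC (−3.15 ± 0.58, adjusted p = 0.00500). Its non-BCSC counts of 388, 458 and 827 lay beside an olfactory background of 360, 437 and 659 for its 51.1 kb of exon, and with that background removed the log2 fold change was −2.98 and no longer passed. The call was kept with the background removed by mean transcript length. The other lower call, LINC00861, is named after its values were seen, with 3, 0 and 14 counts in BCSC against 52, 27 and 101 in non-BCSC (−4.01 ± 1.18, adjusted p = 0.0308) beside an olfactory background of 61.8, 75.1 and 113. PRNCR1, a prostate cancer lncRNA that overlaps CASC19 on the other strand, did not pass the test (−1.09 ± 0.43, adjusted p = 0.0816), although it did with at least 10 counts required in every library (−1.25). Nor did CCAT2, a lncRNA at the CASC8 locus (0.45 ± 0.61, adjusted p = 0.601).

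In the deposited counts, the genes that act with MYC were called higher in BCSC more often than lower. These genes and the MYC targets below were listed with earlier results of these data known, so their counts of calls are descriptions. MYC works in a network of dimers, cofactors and turnover enzymes, and 39 of 41 listed genes of that network passed the filter. By the call rule 9 were higher and 0 lower, beside 8.85% and 11.3% of all genes, and at any fold 16 were higher and 3 lower, beside 15.3% and 14.6%. The median log2 fold change of the 39 was 0.66, beside −0.05 over all genes. With the GC correction 4 of the 39 were called higher, as were 2559 of all 20442 genes. The median in that fit was 0.22, beside 0.14 over all genes. With the olfactory background removed by exon union 1 was called higher, beside 1859 over all genes. The median there was 0.34, beside 0.18 over all genes. It covers only genes with a value in that fit, which MXD4 and MYCL lacked. Several fold changes grew while they lost their call (MXD1 1.89, MLXIP 2.62, ZBTB17 2.05, USP36 2.41). The background removed by mean transcript length left 7 called higher, beside 1789 over all genes. The network genes had a median GC content of 50.5%.

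Among the 11 dimer partners and rivals tested, 2 were called higher, beside 8.85% of all genes, and the median log2 fold change was 0.48. MAX, the obligate partner of MYC, rose from 44.9, 32.7 and 30.9 CPM in non-BCSC to 63.4, 67.3 and 56.7 CPM in BCSC (0.79 ± 0.18, adjusted p = 0.0122) and lost the call without BCSC replicate 2. MXD1, which pairs with MAX and represses the same sites, rose from 13.8, 12.4 and 8.15 CPM to 26.6, 28.6 and 32.4 CPM (1.35 ± 0.26, adjusted p = 0.00606). MLXIP, the glucose-sensing partner of MLX, also rose (1.46 ± 0.36, adjusted p = 0.0150), though not without BCSC replicate 1 or with the GC correction. MGA, a MAX-binding repressor, did not pass the test (−0.03 ± 0.11, adjusted p = 0.851). MXI1, a relative of MXD1, did not either (−0.63 ± 0.22, adjusted p = 0.0520), with BCSC levels of 33.1 to 40.4 CPM and non-BCSC levels of 40.5 to 69.6.

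Of 9 cofactors tested 4 were called, all higher, beside 8.85% of all genes, and at any fold 6 were higher and 0 lower, beside 15.3% and 14.6%, with a median log2 fold change of 0.85. HCFC1, a chromatin cofactor that MYC binds, was at 241, 152 and 118 CPM in BCSC against 55.6, 31.5 and 36.4 CPM in non-BCSC (2.05 ± 0.28, adjusted p = 0.00147). WDR5 (1.13 ± 0.19), ZBTB17, also called MIZ1, the partner through which MYC represses genes (1.43 ± 0.41), and the acetyltransferase KAT2A (1.27 ± 0.37) made up the rest, at adjusted p of 0.00334, 0.0280 and 0.0310. EP400, a chromatin remodeller of the TRRAP complex, was at 167, 145 and 133 CPM in BCSC against 103, 88.7 and 83.0 CPM in non-BCSC and rose by less (0.70 ± 0.13, adjusted p = 0.00575). RUVBL1 (0.16 ± 0.13, adjusted p = 0.366) and RUVBL2 (0.85 ± 0.33, adjusted p = 0.0785) did not pass, although RUVBL2 passed with the replicate block, without a filter and without BCSC replicate 3. These cofactors were GC-rich, with a median of 57.1%, and their median log2 fold change with the GC correction was 0.04. In that fit HCFC1, at 0.50, was still under the adjusted p of 0.05, whereas EP400 (−0.25), WDR5 (0.40), ZBTB17 and KAT2A were not. ZBTB17 also lost its call without BCSC replicate 1 or any non-BCSC replicate, and KAT2A without BCSC replicate 1 or non-BCSC replicate 1 or 2.

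Of 10 genes that set the stability of MYC protein, 3 were called higher and 0 lower, beside 8.85% and 11.3% of all genes, and 6 were higher and 1 lower at any fold, beside 15.3% and 14.6%. AURKA, the mitotic kinase that shields MYC proteins from degradation, was at 91.7, 77.7 and 73.4 CPM in BCSC against 35.7, 37.2 and 37.8 CPM in non-BCSC (1.13 ± 0.14, adjusted p = 0.00102). The groups lay far apart, and the log2 fold change was 1.64 with the GC correction. USP36, a nucleolar deubiquitinase of MYC (1.49 ± 0.32, adjusted p = 0.00966), and AXIN1, a scaffold for MYC degradation (1.07 ± 0.34, adjusted p = 0.0394), were called too. Both lost the call with the GC correction, where AXIN1 was at −0.48, and AXIN1 also without BCSC replicate 1 or 2 or non-BCSC replicate 2 or 3. CIP2A, an inhibitor of the phosphatase that destabilises MYC (0.68 ± 0.18, adjusted p = 0.0189), and the ubiquitin ligase HUWE1 (0.67 ± 0.13, adjusted p = 0.00551) rose by less. CIP2A lost its call without BCSC replicate 3 and with the background removed, and HUWE1 with the GC correction (0.29) and with the background removed by exon union (0.31). FBXW7, the ligase subunit that marks phosphorylated MYC for degradation, was at 66.2 to 71.4 CPM in BCSC against 81.8 to 102 CPM in non-BCSC (−0.44 ± 0.13, adjusted p = 0.0301). That call was lost without any one library except non-BCSC replicate 1, and the value was 0.20 with the GC correction. SKP2 (0.11 ± 0.12, adjusted p = 0.517) and USP28 (−0.07 ± 0.16, adjusted p = 0.757) did not pass, although SKP2 passed with the GC correction (0.85).

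The 9 tested regulators of MYC transcription and mRNA gave 0 calls by the rule (20.1% of all genes were called), in edgeR as deposited, and 1 higher and 2 lower at any fold, beside 15.3% and 14.6%. HNRNPL, which binds many lncRNAs and mRNAs, rose (0.83 ± 0.21, adjusted p = 0.0184), and CTNNB1, beta-catenin (−0.45 ± 0.10, adjusted p = 0.0118), and FUBP1, which binds a site upstream of MYC (−0.34 ± 0.10, adjusted p = 0.0257), fell. All 3 lost the call without BCSC replicate 2 and without others, and with the GC correction CTNNB1 was at 0.065 and FUBP1 at 0.59. HNRNPK (0.19 ± 0.10, adjusted p = 0.173) and CNBP (−0.05 ± 0.09, adjusted p = 0.711) did not pass, although with the GC correction both passed on the higher side (1.12 and 0.59).

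Genes that MYC is known to activate were also higher in BCSC more often than lower. Of 46 tested, 12 were called higher and 0 lower, beside 8.85% and 11.3% of all genes, and at any fold 17 were higher and 5 lower, beside 15.3% and 14.6%. The median log2 fold change was 0.37, beside −0.05 over all genes. With the GC correction 4 of the 46 were called higher, as were 2559 of all 20442 genes, while the median was 0.53, beside 0.14. With the background removed by exon union the median was 0.11, under the 0.18 of all genes. In the nucleolus and translation list, 4 of 22 were called, all higher, beside 8.85% of all genes higher and 20.1% in either direction. At any fold 7 were higher and 2 lower, beside 15.3% and 14.6%. NOP2, an rRNA methyltransferase, was at 71.6, 56.4 and 6.35 CPM in BCSC against 1.90, 4.86 and 5.66 CPM in non-BCSC (3.44 ± 0.84, adjusted p = 0.0192), so BCSC replicate 3 lay beside the non-BCSC libraries, and the call was lost without non-BCSC replicate 3. FBL, the box C/D methyltransferase fibrillarin, was at 149, 109 and 83.5 CPM in BCSC against 57.4, 37.9 and 47.5 CPM in non-BCSC (1.26 ± 0.23, adjusted p = 0.00444). The ribosome assembly factors RRP12 (2.05 ± 0.30, adjusted p = 0.00187) and MYBBP1A (1.76 ± 0.45, adjusted p = 0.0184) were called as well, MYBBP1A not without BCSC replicate 1 or non-BCSC replicate 2. Neither NOP2 (2.73) nor MYBBP1A (0.44) passed with the GC correction. PA2G4, a growth-linked RNA-binding protein, rose by less (0.63 ± 0.13, adjusted p = 0.00748).

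The 2 most abundant nucleolar proteins of the list went the other way. NPM1, nucleophosmin, was at 1815, 2110 and 2044 CPM in BCSC against 2768, 3020 and 2925 CPM in non-BCSC (−0.55 ± 0.09, adjusted p = 0.00321). NCL, nucleolin, was at 1124, 1323 and 1001 CPM in BCSC against 1704, 1851 and 1590 CPM in non-BCSC (−0.58 ± 0.12, adjusted p = 0.00725). Both held without any single library, yet with the GC correction NPM1 was at 0.49 and NCL at −0.10, and neither passed. PTMA (−0.29 ± 0.11, adjusted p = 0.0813) and EIF4A1 (0.18 ± 0.13, adjusted p = 0.334) did not pass.

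In the list for metabolism and growth 8 of 24 were called, all higher, beside 8.85% of all genes. SRM, spermidine synthase, was at 120, 82.8 and 69.3 CPM in BCSC against 22.0, 15.3 and 22.1 CPM in non-BCSC (2.20 ± 0.24, adjusted p = 0.000545). CAD, which starts pyrimidine synthesis, was at 85.9, 50.9 and 48.9 CPM in BCSC against 20.8, 16.3 and 13.2 CPM in non-BCSC (1.88 ± 0.27, adjusted p = 0.00169). CDK4, the kinase of the G1 phase, was at 110, 94.6 and 75.8 CPM in BCSC against 41.8, 23.9 and 39.0 CPM in non-BCSC (1.42 ± 0.23, adjusted p = 0.00266). In all 3 the BCSC values lay well above the non-BCSC values. The folate carrier SLC19A1 (2.53 ± 0.48), the cell cycle factor E2F1 (1.92 ± 0.39), the glutamine carrier SLC1A5 (1.67 ± 0.31), PHB1, prohibitin (1.27 ± 0.31), and the amino acid carrier SLC7A5 (1.26 ± 0.23) completed the calls, at adjusted p of 0.00587, 0.00782, 0.00512, 0.0158 and 0.00489. With the GC correction SRM was at 0.92, CAD at 0.61 and CDK4 at 1.18, each still under an adjusted p of 0.05. SLC7A5 was at −0.16, and SLC19A1, E2F1 and SLC1A5 no longer passed. PHB1 lost its call without BCSC replicate 1 or non-BCSC replicate 2 or 3.

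The mitochondrial chaperonin pair HSPE1 (−0.91 ± 0.22, adjusted p = 0.0137) and HSPD1 (−0.31 ± 0.09, adjusted p = 0.0339) fell, as did the lactate carrier SLC16A1 (−0.61 ± 0.10, adjusted p = 0.00276). The HSPD1 call was lost when any single library was left out, and that of HSPE1 without BCSC replicate 2 or non-BCSC replicate 1 or 2. With the GC correction HSPE1 was at −0.09, HSPD1 at 0.68 and SLC16A1 at 0.27. PKM (0.26 ± 0.19, adjusted p = 0.318) and TFRC (0.01 ± 0.09, adjusted p = 0.948) did not pass, although with the GC correction TFRC passed on the higher side (0.69) and PKM on the lower (−0.55).

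MYC and MAX bind the E-box CACGTG, a palindrome that reads the same on both strands. In RefSeq promoters (GRCh38.p14, 250 bases before to 50 after the start), 15 of the 39 MYC-activated genes with an entry (38.5%) held it, beside 2548 of all 35116 (7.26%). The 39 were taken with 1 promoter per gene, whereas the 35116 are all entries, not matched for GC content. As the 39 were listed as known MYC targets, nothing is read from the gap between these shares. The windows of 30 bases below, on the gene's strand, show it in capitals for examples of named genes that changed. These examples were taken from both sides of the comparison. Their split between the sides therefore does not show on which side the motif was more frequent. The motif begins 199 bases before the start of SRM, 216 before that of CDK4 (which holds 3 copies), 6 after that of FBL, in its 5′ UTR, 22 before that of HSPE1 and 88 before that of HSPD1. HSPE1 and HSPD1 share 1 promoter and the same motif, read from opposite strands.
SRM, chr1:11060200-11060229, minus strand: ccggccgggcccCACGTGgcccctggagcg
CDK4, chr12:57752509-57752538, minus strand: atgtcaagcggtCACGTGtgatagcaacag
FBL, chr19:39846356-39846385, minus strand: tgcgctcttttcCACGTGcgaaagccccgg
HSPE1, chr2:197500345-197500374, plus strand: gggtgattttttCACGTGtcgccagggccg
HSPD1, chr2:197500345-197500374, minus strand: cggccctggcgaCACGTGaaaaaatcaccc
The motif thus stood near the start of genes that rose (SRM, CDK4, FBL) and of the pair that fell in the deposited counts. With the GC correction HSPE1 was at −0.09 and did not pass, and HSPD1 was at 0.68 and passed on the higher side. A match describes the letters and not binding.

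Genes that MYC is known to repress formed a short list. Of 8 tested, 2 were called higher and 1 lower, beside 8.85% and 11.3% of all genes, and at any fold 3 were higher and 2 lower, beside 15.3% and 14.6%, with a median log2 fold change of 0.16. CDKN1A, the p21 cell cycle inhibitor, was at 78.9, 59.3 and 38.4 CPM in BCSC against 22.9, 13.96 and 10.4 CPM in non-BCSC (1.90 ± 0.34, adjusted p = 0.00422). GADD45A, a stress-induced growth arrest gene, was at 27.4, 32.0 and 31.4 CPM in BCSC against 10.4, 14.6 and 13.9 CPM in non-BCSC (1.22 ± 0.23, adjusted p = 0.00532). NDRG1, a stress and hypoxia gene, was at 126, 128 and 92.0 CPM in BCSC against 420, 333 and 210 CPM in non-BCSC (−1.48 ± 0.23, adjusted p = 0.00251). These 3 calls were kept in each fit that left out 1 library, and their directions were kept with the GC correction (0.99, 1.06 and −2.03). CDKN1B, the p27 inhibitor (−0.70 ± 0.20, adjusted p = 0.0285), fell and THBS1, thrombospondin (0.34 ± 0.10, adjusted p = 0.0325), rose, and each lost its call in at least 4 of the 6 fits that left out 1 library. TXNIP (0.08 ± 0.20, adjusted p = 0.794) and NDRG2 (0.25 ± 0.54, adjusted p = 0.756) did not pass.

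**Figure D5:**
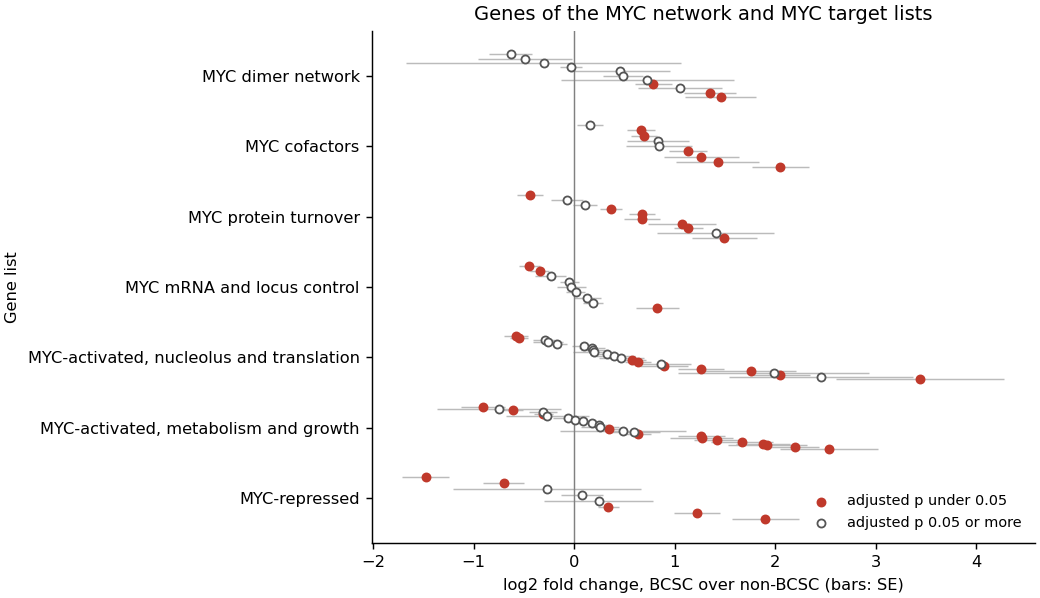
Fitted log2 fold change, BCSC over non-BCSC, with SE for each tested gene of 7 lists around MYC, filled where the adjusted p is under 0.05 and open otherwise. Filled points lie mostly to the right in the cofactor, turnover and MYC-activated lists, and on both sides among MYC-repressed genes.

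Across the 6 libraries, the genes whose log2 CPM followed MYC most closely, among 5660 candidates with a mean of at least 500 counts, were NAP1L4 (Pearson's r = 0.989), EML1 (0.984), XPNPEP1 (0.982), HMBOX1 (0.981) and SCCPDH (0.980), with 0.927 as the 99th percentile of all candidates. Those closest to PVT1, among 5533 candidates of like abundance, were PCSK7 (0.999), ANKLE2 (0.999), TTL (0.997), TDRD7 (0.996) and SOX13 (0.995), with a 99th percentile of 0.983. These are descriptions over 6 points that share the 2 groups, depth and background.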

How the data were processed

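LncRNA sequencing had been run on 6 libraries, 3 BCSC and 3 non-BCSC, grouped by sample title. The authors deposited estimated counts of reads per transcript, not normalized and already in whole numbers, and the step that estimated them is not given in the sources used here. The study's RNA-seq methods name HISAT2 and hg19, whereas the submitters' processing notes name HISAT2, featureCounts, DESeq2 and hg38. Of 252618 transcripts, 249616 (98.8%) matched GENCODE 44 on GRCh37 by identifier. The 3002 others held 0.273% of counts and were left out. Coordinates are those of GENCODE on GRCh37, not of the authors' alignment. CASC19 transcripts were set against RefSeq CCAT1 and CASC19 by the GRCh38 positions the annotation carries.

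Sums per gene were normalized by TMM, passed through filterByExpr and compared by the quasi-likelihood test of edgeR 4.0.16 (R 4.3.3, robust, group only), with p-values adjusted by Benjamini-Hochberg over 20442 genes. The common biological coefficient of variation was 0.453. Calls required log2 fold changes beyond 1 at adjusted p under 0.05, the criterion of the study's RNA-seq methods. Replicates differed beyond counting error (chi-square per degree of freedom 15.2 to 42.1), so none were merged. The fit was tested on simulated data.

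The members and lists were chosen with earlier results of these data known. Named were the members, neighbours with a mean of at least 50 counts, list genes called or, up to 5 per direction and list, past the adjusted p, and the 2 most abundant genes of each list that did not pass. BOP1 and PECAM1 had no match. Some listed items are not reported here and were left out of list counts.

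Results were recomputed with DESeq2 1.42.0, RLE size factors, no filter, a minimum of 10 counts in all libraries, the replicate number as a block, each library left out, a loess correction (span 0.3) for GC content and length, removal of an olfactory receptor background per kb, any fold, and transcripts sharing no exon with another gene on the same strand. The background by mean transcript length was added after the data were seen.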

Additional observations from a re-analysis of the deposited data

How the results depend on the processing

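The replicate numbers were not shown to pair the libraries, since the correlations of same-numbered libraries' deviations were 0.179, 0.014 and 0.219, and replicate 2 fell under 0.1. With the replicate block, 4 neighbours were called lower and 42 of the 43 named genes past the threshold kept their call, NOP2 being the exception. Of the 43, DESeq2 kept 43, RLE size factors 40, a minimum of 10 counts 39, no filter 38, the GC correction 18, background removal 26 by exon union and 38 by mean transcript length. Leaving out each library in turn kept 29 to 38, and 24 genes kept their call in all 6 of those fits. Low depth limits CASC8 and CASC11, and CASC11 had no value with the background removed by exon union. The causes of these changes were not tested.

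Over all genes the calls were 1810 higher and 2307 lower. At any fold they were 3125 and 2978. The lower calls were 4771 with DESeq2, 1177 with at least 10 counts, 662 with the background removed by exon union and 1081 by mean transcript length. The split of higher to lower was 2559 to 1967 with the GC correction, 1859 to 662 and 1789 to 1081 with the background removed, and 1383 to 1177 with at least 10 counts. Without one library the higher calls ran from 959 (without BCSC replicate 1) to 2230 and the lower calls from 1103 (without non-BCSC replicate 3) to 3004, with 1198 lower without BCSC replicate 1 and 1143 without BCSC replicate 2.

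Of the neighbours, 0 were called higher without a filter and 2 at any fold, and 5 were called lower with DESeq2, 4 without a filter, 0 with the background removed by exon union and 1 by mean transcript length. Without one library the higher calls were 0 each time, and the lower calls ran from 1 to 6, the latter without BCSC replicate 3. In the MYC network 16 were higher at any fold and 3 lower, and the higher calls were 4 with the GC correction and 1 with the background removed by exon union. Without one library they ran from 5 (without BCSC replicate 1) to 11, and 0 were lower. Of the MYC-activated genes 4 were higher with the GC correction, 5 were lower at any fold, 1 lower with at least 10 counts, 2 with the background removed by exon union and 1 by mean transcript length. Without one library they ran from 10 to 14 higher and from 0 to 1 lower. Of the MYC-repressed genes 1 was higher with the GC correction and 1 with the background removed by exon union, and 2 were lower at any fold and 2 with that background removed. Without one library 2 were higher and 1 was lower each time.

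Among the members, log2 fold changes with the GC correction were −0.32 for MYC, 1.27 for PVT1, −0.99 for CASC19, 0.47 for CASC8, −1.67 for CASC11 and 0.96 for PCAT1. With the background removed by exon union they were −0.17 for MYC, 1.28 for PVT1, −2.07 for CASC19, 1.89 for CASC8 and 0.41 for PCAT1. By mean transcript length, a choice made after the data were seen, they were −0.060 for MYC, 0.74 for PVT1, 0.53 for CASC8, −1.85 for CASC11 and −0.28 for PCAT1. PCAT1 was −1.03 without transcripts sharing exons. Without one library MYC ran from 0.07 to 0.27, PVT1 from 0.90 to 1.08, CASC19 from −1.92 to −1.55, CASC8 from −0.34 to 0.20, CASC11 from −2.34 to −1.99 and PCAT1 from −0.15 to 0.05. Of 59 member transcripts 0 were called in edgeR (11 at an unadjusted p under 0.05), 2 with at least 10 counts and 5 with DESeq2, and 0 without any one library.

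With the GC correction the sign turned for EP400 (−0.25), AXIN1 (−0.48), FBXW7 (0.20), CTNNB1 (0.065), FUBP1 (0.59), CNBP (0.59), NPM1 (0.49), SLC7A5 (−0.16), SLC16A1 (0.27), HSPD1 (0.68) and PKM (−0.55). It turned with the background removed by exon union for TFRC (−0.39) and THBS1 (−0.053), and by mean transcript length for PRNCR1 (8.59), where the estimated background exceeded its non-BCSC counts. These turns are listed only for named genes that passed as deposited or in the fit concerned. PRNCR1 was also positive with the exon union (3.25), where it did not pass. MXI1 and PTMA, which did not pass, passed on the lower side with DESeq2, RLE size factors, at least 10 counts, the replicate block and either background removal. Others that did not pass as deposited passed with the GC correction (SKP2, HNRNPK, TFRC and TXNIP), with the replicate block and without a filter (RUVBL2 and PKM), with either background removal (CNBP, lower) or with at least 10 counts (PRNCR1).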
